A study of Caenorhabditis elegans with 24 samples.

Results

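The genes of the proteasome were taken from both deposited count tables as every protein-coding gene whose WormBase symbol is pas-, pbs-, rpt- or rpn- followed by a number. This gave 33 of the 46778 genes in the tables, of which 19725 are protein-coding: 7 pas, 7 pbs, 6 rpt and 13 rpn genes. The libraries, 24 in number and 3 per group, hold RNA of whole Caenorhabditis elegans. The ceh-60(ok1485) mutant (strain DLS357) and the wild type (strain N2) were taken on adult day 4 and on adult day 1. The double mutants ceh-60(ok1485); pqm-1(ok485) (DLS420) and ceh-60(ok1485); pqm-1(rhd90) (DLS423), here the ok485 and the rhd90 double mutant, and the single mutants pqm-1(ok485) (DLS421) and pqm-1(rhd90) (DLS424) were taken on day 1 only. Both ceh-60 and pqm-1 encode transcription factors, the first with a homeodomain and the second with zinc fingers. Each genotype is 1 strain. Whether replicates came from separate cultures is not labelled, and p-values then cover the spread between these libraries alone, which may be technical. The wild type and ceh-60 libraries are in the first table and all libraries with a pqm-1 allele in the second.

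The proteasome degrades proteins that carry ubiquitin chains. Its core particle is a barrel of stacked rings, the outer ones built from alpha subunits (pas genes) and the inner ones from beta subunits (pbs genes), some of which hold the proteolytic sites. A regulatory particle caps the barrel: its ATPases (rpt genes) unfold substrates and push them in, and its other subunits (rpn genes) bind ubiquitin chains, remove them and hold the cap together. In C. elegans the transcription factor SKN-1 is known to raise proteasome gene transcription when the proteasome is impaired.

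Library depth ranged from 18809461 to 32598349 counts, and every proteasome gene except rpn-6.2 had at least 2564 counts in every library, so counting error was small beside the spread between replicates. Within groups, libraries correlated at 0.9896 or more on the log2 scale. The lowest value was that between replicates 1 and 2 of pqm-1(ok485). Replicate 1 was the deepest library of the second table, and results that turn on it are named. ceh-60 stood at 1.38 ± 0.431 CPM (counts relative to library size, scaled by TMM within a table) in the ceh-60 mutant on day 1, against 6.33 ± 0.660 CPM in wild type (SD, n = 3 each). pqm-1 stood at 5.86 ± 0.288 CPM in pqm-1(ok485) and 14.3 ± 1.01 CPM in pqm-1(rhd90), against 11.2 ± 0.374 CPM in wild type of day 1 in the other table. All 13 oocyte, 8 muscle and 8 neuron markers and the 7 of 8 intestine markers that were matched had counts in every group, as did 6 epidermis markers except rol-6, which was at 0 in pqm-1(rhd90). In such bulk samples fewer cells of a type and less RNA per cell cannot be told apart.

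Proteasome genes were among the more abundant genes, at similar levels per length. In wild type on day 1, 32 of the 33 lay between 164 CPM per kb of exon (rpt-6) and 436 CPM per kb (pas-5), at percentiles 94.4 to 98.2 of the 13137 genes tested. Family medians of the level per kb were 325 CPM for pas, 312 for pbs, 267 for rpt and, without rpn-6.2, 233 for rpn genes. The exception was rpn-6.2, a paralog of the lid subunit gene rpn-6.1, at 20.00 ± 0.394 CPM per kb (SD, n = 3) and percentile 60.4. The order of the 33 levels per kb in wild type day 1 was much the same in the other 7 groups, with a Spearman correlation across genes of 0.927 to 0.982.

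**Figure D1:**
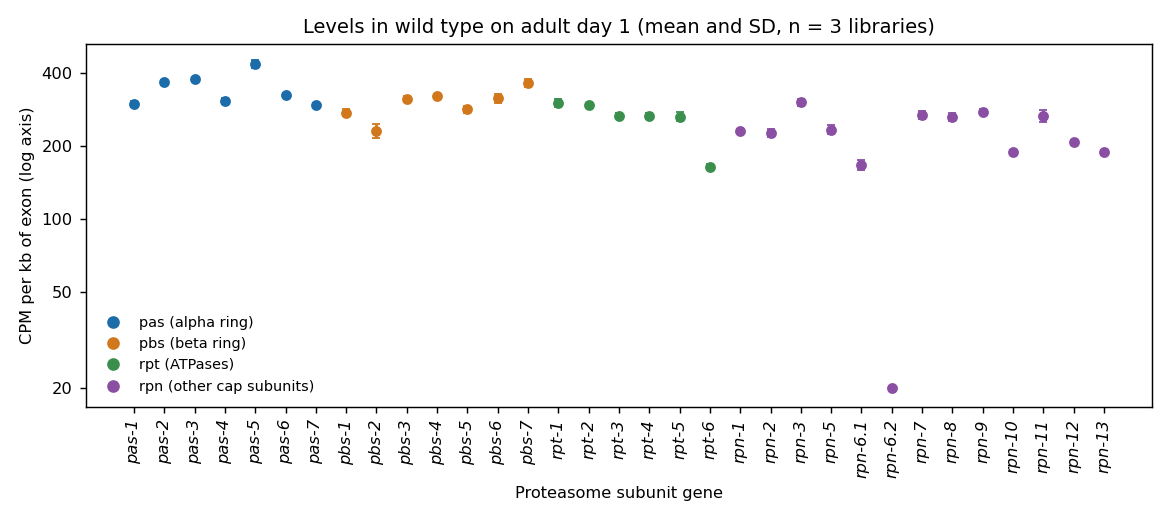
Level of each proteasome gene in wild type on adult day 1, in CPM per kb of exon on a log axis, as mean and SD of 3 libraries, coloured by family. All genes lie between 164 and 436 CPM per kb except rpn-6.2 at 20.0.

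Proteasome genes also varied together within groups. The median within-group SD was 0.060 on the log2 CPM scale for the 32 genes other than rpn-6.2 and 0.086 for rpn-6.2, against 0.14 for all genes tested in the first table. Deviations of 2 proteasome genes from their group means over the 24 libraries correlated at a median of 0.69, and those of rpn-6.2 with the other genes at 0.52. These correlations describe libraries that share depth and scaling, and single genes here are therefore not independent measurements. Neither the correlations nor the SDs were computed for other genes of similar level. They are thus not shown to be particular to proteasome genes. On the chromosomes, 10 of the 33 genes lie on I, 7 on II, 8 on III, 3 on IV, 5 on V and 0 on X. Chromosome I thus holds 30.3% of them and 14.4% of all protein-coding genes.

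Under TMM scaling, the comparisons within a table with the most calls of proteasome genes were those between ages. They also had the most calls over all genes, with 28.3% higher and 24.3% lower in the ceh-60 mutant. In wild type the shares were 28.4% and 26.3%. Next came ceh-60 on day 1, where 25.5% of all genes passed in either direction. Relative to all other genes, proteasome transcripts were lower on day 4 than on day 1, with a median log2 fold change of -0.22 in the ceh-60 mutant and -0.21 in wild type after subtraction of the median of all genes. All 7 genes of the alpha ring fell in both genotypes, most beta ring genes did, and the ATPase genes split. All of these directions are those under TMM scaling, which holds the bulk of genes level. When libraries were scaled by their totals instead, the median of all genes was 0.19 in the ceh-60 mutant, against 0.043 with TMM, and 0.20 in wild type, against 0.017 with TMM, and the calls changed as given further on. The share of all calls that were higher was then 71.6% in the mutant, against 53.8% with TMM, and 71.7% in wild type, against 51.9% with TMM.

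In the ceh-60 mutant, 21 of the 33 genes passed the test as lower on day 4 and 0 as higher, against 24.3% of all genes called lower. The log2 fold changes of all 33 had a median of -0.18. The counts were 7 of 7 for pas, 5 of 7 for pbs, 3 of 6 for rpt and 6 of 13 for rpn genes. Without replicate 2 of day 1, the library with the highest proteasome share, the count in the mutant was 13. It was 27 with relative log expression size factors, 28 with DESeq2 and 29 with no filter on low counts. The first 2 of these settings called 26% and 24.3% of all genes lower. The same 3 settings gave 27, 27 and 24 proteasome genes lower in wild type. In wild type, 27 passed as lower and 0 as higher, against 26.3% of all genes called lower. There the 33 values had a median of -0.19 and ran between -0.47 and -0.036, and the libraries of the 2 ages did not overlap for 27 genes. The share of all genes without such overlap was not computed. The counts were 7 of 7, 6 of 7, 2 of 6 and 12 of 13 in the same order of families. The 6 that did not pass were pbs-1, rpt-1, rpt-2, rpt-3, rpt-6 and rpn-11.

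Among the alpha subunits, pas-3 (chromosome I, 5105110 to 5106204, reverse strand, coordinates of the deposited tables) had the smallest p in both genotypes. It stood at 316, 301 and 283 CPM in the ceh-60 mutant on day 4, against 364, 407 and 381 CPM on day 1 (log2 fold change -0.36 ± 0.051, adjusted p = 6.39e-05). In wild type it stood at 315, 307 and 294 CPM on day 4, against 392, 399 and 399.7 CPM on day 1 (log2 fold change -0.38 ± 0.051, adjusted p = 3.34e-05). Every library of day 4 lay below every library of day 1. The other 6 alpha genes changed by -0.18 (pas-6) to -0.31 (pas-2) in the mutant and -0.19 (pas-6) to -0.35 (pas-2) in wild type.

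Of the beta subunits, pbs-5 (chromosome I, 14719167 to 14720477, reverse strand) encodes the subunit with the chymotrypsin-like site. It stood at 252, 257 and 228 CPM in the ceh-60 mutant on day 4, against 301, 313 and 313 CPM on day 1 (log2 fold change -0.33 ± 0.049, adjusted p = 9.21e-05). In wild type it stood at 248, 231 and 236 CPM on day 4, against 292, 312 and 299 CPM on day 1 (log2 fold change -0.34 ± 0.049, adjusted p = 6.32e-05). The ages did not overlap in either genotype. The genes of the other catalytic subunits had smaller differences. pbs-2, with the trypsin-like site, had a log2 fold change of -0.15 ± 0.068 (adjusted p = 0.0792) in the mutant and passed at -0.19 ± 0.068 (adjusted p = 0.0285) in wild type. pbs-1, with the caspase-like site, passed in neither, at -0.11 ± 0.058 in the mutant (adjusted p = 0.122) and -0.058 ± 0.058 in wild type (adjusted p = 0.423).

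The ATPase genes differed from one another. rpt-4 (chromosome II, 42181 to 46216, reverse strand) stood at 330.4, 320.3 and 288 CPM in the ceh-60 mutant on day 4, against 369.9, 404 and 379 CPM on day 1 (log2 fold change -0.30 ± 0.054, adjusted p = 0.000469). In wild type it stood at 323, 307 and 300.5 CPM on day 4, against 387, 406 and 398 CPM on day 1 (log2 fold change -0.36 ± 0.054, adjusted p = 9.16e-05), with no overlap of ages in either genotype. rpt-5 fell as well, by 0.18 in the mutant and by 0.22 in wild type. rpt-3, another ATPase gene, chosen here as the smallest change in wild type after values were seen, overlapped between ages. It stood at 362, 354 and 319 CPM on day 4 and 343, 381 and 354 CPM on day 1 in the mutant, and at 372, 354 and 335 CPM on day 4 and 355, 370.2 and 363 CPM on day 1 in wild type. Its 95% interval was -0.18 to 0.063 in the mutant and -0.16 to 0.086 in wild type. rpt-1 and rpt-2 likewise passed in neither genotype, and rpt-6 passed in the mutant alone (-0.20 ± 0.054, against -0.088 ± 0.054 in wild type). That difference between genotypes did not pass its own test (log2 fold change -0.12 ± 0.076, adjusted p = 0.477).

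Among the rpn genes, rpn-6.1 (chromosome III, 6959110 to 6962027, reverse strand), a lid subunit whose raised expression is known to increase proteasome activity in C. elegans, stood at 245, 241 and 214 CPM in the ceh-60 mutant on day 4, against 263, 287 and 273 CPM on day 1 (log2 fold change -0.23 ± 0.056, adjusted p = 0.00351). In wild type it stood at 240.1, 233 and 225 CPM on day 4, against 267, 281 and 294 CPM on day 1 (log2 fold change -0.27 ± 0.056, adjusted p = 0.00117). The ages did not overlap. rpn-10 (chromosome I, 10730712 to 10732448, reverse strand), a ubiquitin receptor, did not pass at -0.14 ± 0.055 in the mutant (adjusted p = 0.0535) and passed at -0.15 ± 0.055 in wild type (adjusted p = 0.0305). Both values lie near the threshold: the mutant passed in 6 of 12 fits that left out 1 library, and the call in wild type was lost when replicate 1, 2 or 3 of day 1 or replicate 2 or 3 of day 4 was left out. rpn-11, the deubiquitinase of the cap, passed in neither, at -0.11 ± 0.055 in the mutant and -0.076 ± 0.055 in wild type.

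**Figure D2:**
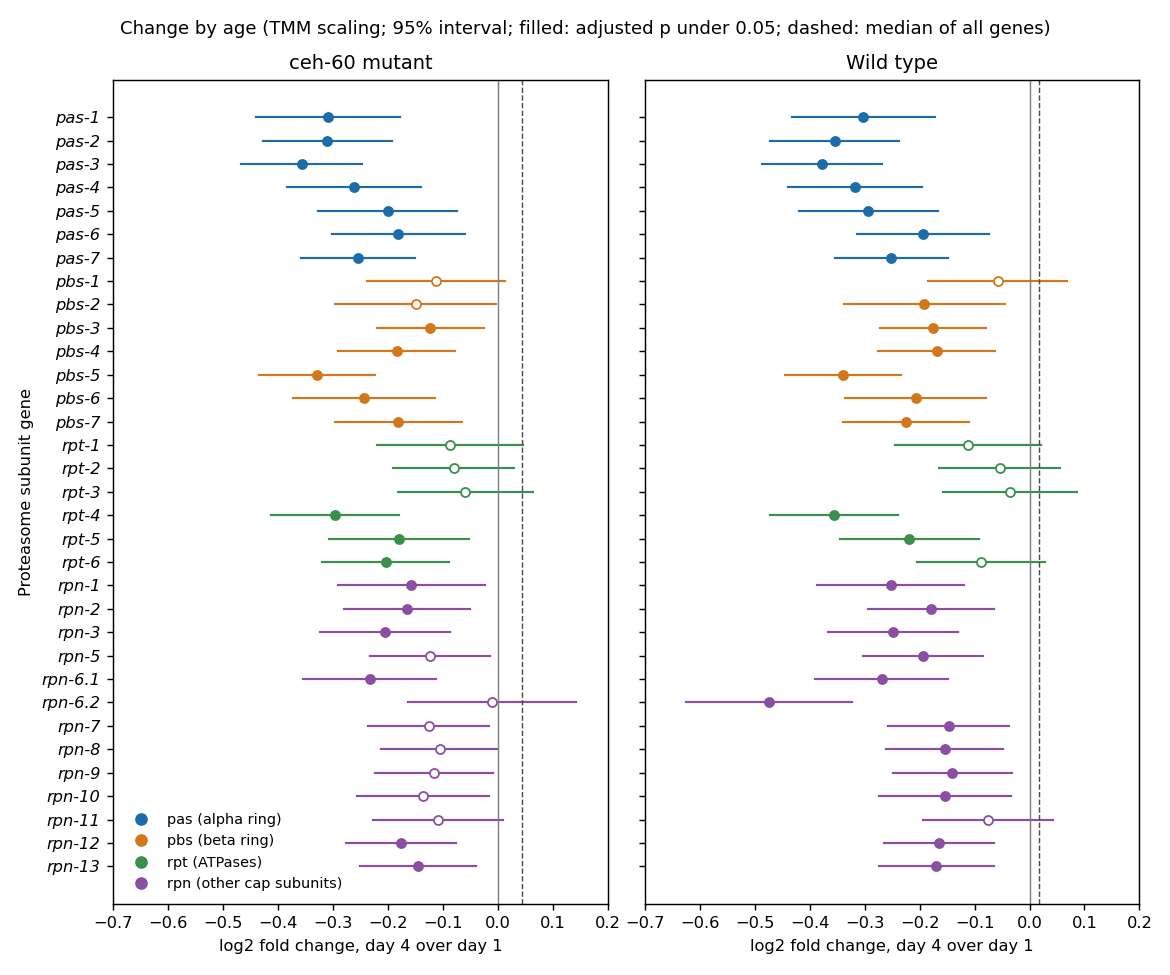
Log2 fold change of each proteasome gene, day 4 over day 1, in the ceh-60 mutant (left) and wild type (right) with its 95% interval. Points are filled where the adjusted p is under 0.05, the solid line marks 0 and the dashed line the median of all genes. All points lie below 0 under TMM scaling, the alpha ring genes furthest as a family, and rpn-6.2 is the gene whose difference between the genotypes passed its test. With library totals 5 genes are called higher in wild type, where 5733 of all 13137 genes tested are.

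Across genes, the 2 genotypes, which share no library, gave much the same age differences. All 33 log2 fold changes were negative in both, and 20 genes passed in both, which is 95.2% of the 21 called in the mutant and 74.1% of the 27 called in wild type. The correlation of the 33 values was 0.56 (Spearman 0.69), and 0.88 (0.86) over the 32 genes without rpn-6.2. These are descriptions across genes, which share libraries. The overlap of calls and the correlations were not computed over all genes, so they are not shown to be particular to proteasome genes. The age difference in wild type was only loosely related to the level per kb (r = -0.34 over 32 genes) and hardly to exon length (r = 0.082).

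How far this is a fall in proteasome RNA depends on the scaling. As a share of all counts, proteasome genes took 1.09, 1.07 and 1.02% in ceh-60 mutants of day 4, against 1.04, 1.14 and 1.07% on day 1. In wild type they took 1.06, 1.03 and 1.01% on day 4, against 1.02, 1.07 and 1.06% on day 1. These shares overlap between ages in both genotypes. The TMM-scaled sums did not: they were 10309, 10086 and 9143 CPM in the mutant on day 4 against 10695, 11709 and 11020 CPM on day 1, and 10336, 9887 and 9645 CPM in wild type on day 4 against 11076, 11672 and 11614 CPM on day 1. With library totals, 7 genes passed as lower and 0 as higher in the mutant, and 7 as lower and 5 as higher in wild type. The 7 lower in the mutant were pas-1, pas-2, pas-3, pas-4, pas-7, pbs-5 and rpt-4. In wild type they were pas-1, pas-2, pas-3, pas-4, pbs-5, rpt-4 and rpn-6.2, and the 5 higher were pbs-1, rpt-2, rpt-3, rpt-6 and rpn-11. A change of scaling shifts all genes nearly alike, so the difference from the median of all genes could hardly change. It was -0.22 in the mutant and -0.21 in wild type under library totals.

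**Figure D3:**
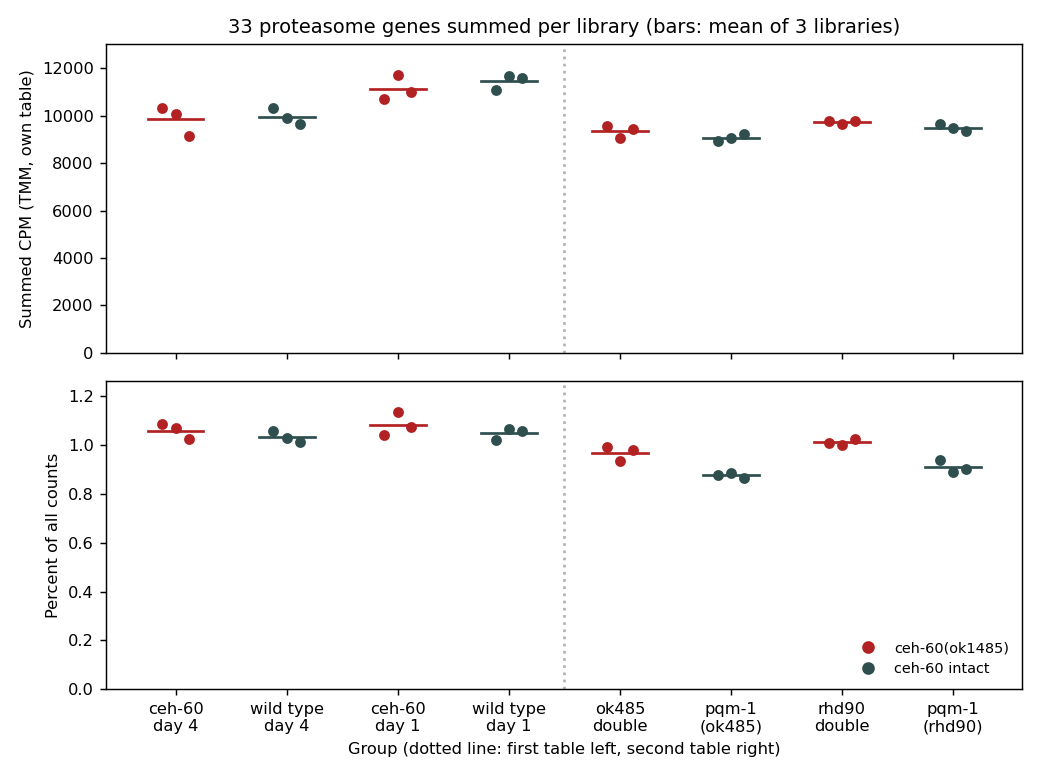
Sum of the 33 proteasome genes in each library, as TMM-scaled CPM (top) and as percent of all counts (bottom), by group, with the mean of 3 libraries as a bar. Day 4 lies below day 1 in the upper panel, while the shares of the same libraries overlap in the lower one.

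Markers of other tissues moved with age in the same libraries. Summed epidermis markers stood at 312 to 392 CPM in the ceh-60 mutant on day 4 against 2284 to 3036 CPM on day 1, and at 239 to 258 against 1412 to 1822 CPM in wild type, over 6 of 6 genes. Summed muscle markers (8 of 8 genes) stood at 570 to 676 against 2012 to 2811 CPM in the mutant and 493 to 589 against 1299.7 to 1785 CPM in wild type, and summed intestine markers (7 of 8 genes) at 1970.2 to 2298 against 3519.7 to 4569 CPM in the mutant and 662 to 736 against 2061 to 2231 CPM in wild type. Members of the intestine list moved both ways, with 2 higher and 5 lower of 7 in the mutant and 2 higher and 4 lower in wild type. Of 5 epidermis markers tested, 1 was higher and 3 lower in the mutant, and 0 higher and 4 lower in wild type. Summed oocyte markers (13 of 13 genes) stood at 18128 to 20982 against 17677 to 19645 CPM in the mutant. In wild type they stood at 21331 to 23653 against 18657 to 20232 CPM. Of these 13, 5 were called higher and 1 lower in the mutant, and 7 higher and 1 lower in wild type. Summed sperm markers (14 of 14 genes) stood at 10.6 to 12.3 against 10.3 to 28.9 CPM in the mutant, where 8 of 10 tested were lower and ssp-9, ssp-16 and ssq-3 were at 0 on day 4. In wild type they stood at 13.1 to 23.7 against 11.9 to 30.6 CPM, with 0 of 10 lower and 0 at an unadjusted p under 0.05 by edgeR. Summed neuron markers (8 of 8 genes) stood at 209 to 224 against 177 to 190 CPM in the mutant. In wild type they stood at 206 to 215 against 168 to 177 CPM. Of these 8, 1 was called higher and 0 lower in the mutant, where 2 had negative log2 fold changes. In wild type 3 were called higher and 0 lower, and 3 had negative values. Summed embryo markers (12 of 13 genes) stood at 23.5 to 40.2 against 14.2 to 18.8 CPM in the mutant and 33.2 to 57.5 against 21.5 to 26.8 CPM in wild type. Of 10 embryo markers tested, 4 were higher and 3 lower in the mutant, and 4 higher and 4 lower in wild type. The part of these markers in the proteasome result was not tested.

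Genes that work with the proteasome, tested with TMM scaling alone, did not all move in 1 direction with age. Over all genes, 28.3% were called higher and 24.3% lower in the mutant, and 28.4% higher and 26.3% lower in wild type. All 8 cct genes, which encode the cytosolic chaperonin, fell in both genotypes, with a median log2 fold change of -0.46 in the ceh-60 mutant and -0.60 in wild type. cct-3 had -0.51 ± 0.055 in the mutant (adjusted p = 6.15e-06) and cct-2 -0.72 ± 0.058 in wild type (adjusted p = 3.74e-07). The COP9 signalosome, built on a plan like that of the proteasome lid, had 3 genes higher and 0 lower of 6 in the mutant and 2 higher and 0 lower in wild type, where the share of higher calls is near that of all genes. csn-2 had the smallest p in the mutant (0.17 ± 0.041, adjusted p = 0.00383) and csn-4 in wild type (0.11 ± 0.039, adjusted p = 0.0241). Of 7 factors associated with the proteasome, 4 were lower and 1 higher in the mutant and 5 lower and 1 higher in wild type. ubh-4, a deubiquitinase of the cap, had the smallest p, with -0.30 ± 0.043 in the mutant (adjusted p = 7.25e-05) and -0.37 ± 0.043 in wild type (adjusted p = 8.77e-06). ecps-2 had the lowest value in wild type, -0.87 ± 0.28 (adjusted p = 0.0164), and -0.58 ± 0.28 in the mutant (adjusted p = 0.0975), and psmd-9, a chaperone of cap assembly, rose by 0.23 in the mutant and 0.16 in wild type.

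The listed regulators are skn-1, genes whose products process or hold down SKN-1, and genes that SKN-1 activates. Of the 9, 3 rose and 0 fell in the ceh-60 mutant, and 4 rose and 0 fell in wild type, so that the share of higher calls is near that of all genes in the mutant. skn-1 itself had a log2 fold change of 0.20 ± 0.036 in the mutant (adjusted p = 0.000527) and 0.21 ± 0.036 in wild type (adjusted p = 0.000336). wdr-23, whose product holds SKN-1 down, had the smallest p, at 0.37 ± 0.046 in the mutant (adjusted p = 1.86e-05) and 0.40 ± 0.046 in wild type (adjusted p = 7.65e-06). Ubiquitin genes and conjugating enzymes split, with 6 higher and 4 lower of 23 in the mutant and 6 higher and 6 lower in wild type, with shares of higher calls near those of all genes. ubq-2, a fusion of ubiquitin with a ribosomal protein, had -0.74 ± 0.043 in the mutant and -0.95 ± 0.043 in wild type, and ubc-8 had the highest values, 0.99 ± 0.10 in the mutant and 1.01 ± 0.11 in wild type. ubc-25 had the smallest p of the rises in wild type, at 0.41 ± 0.040. Of 16 genes of CDC-48 and ER-associated degradation, 2 were higher and 4 lower in the mutant and 4 higher and 4 lower in wild type. The smallest p in each direction belonged to a pair of ubiquitin ligase genes, ufd-2, with -0.33 ± 0.051 in the mutant and -0.43 ± 0.051 in wild type, and chn-1, with 0.17 ± 0.042 in the mutant and 0.25 ± 0.041 in wild type.

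Between the ceh-60 mutant and wild type, no proteasome gene other than rpn-6.2 passed at either age under TMM scaling. On day 1, 1 of the 33 genes passed as lower in the ceh-60 mutant and 0 as higher, where 25.5% of all genes passed and 9.46% were called lower. The median log2 fold change was -0.043, against -0.028 for all genes. The 32 genes that did not pass had log2 fold changes between -0.085 and 0.038, and their 95% intervals reached no further than -0.21 and 0.15. On day 4, 0 passed in either direction by edgeR and 0 by DESeq2, with 0 at an unadjusted p under 0.05, where 24.4% of all genes passed. The intervals reached no further than -0.20 and 0.21. With library totals 2 genes were also called higher in the mutant on day 1, pbs-5 (0.13) and rpt-6 (0.13), which had 0.037 ± 0.049 and 0.038 ± 0.054 with TMM. Over all genes, 2692 of the 13137 tested were then called higher on day 1. The share of all calls that were higher was then 88.4% on day 1, against 62.9% with TMM, and 82.6% on day 4, against 66.2%.

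The members of each family with the smallest p on day 1 show the size of the differences. pas-7 stood at 267, 289.8 and 274 CPM in the ceh-60 mutant, against 289, 295 and 298 CPM in wild type (log2 fold change -0.085 ± 0.048, adjusted p = 0.199). pbs-3 stood at 248, 268 and 251 CPM in the mutant, against 257, 273 and 265 CPM in wild type (log2 fold change -0.051 ± 0.045, adjusted p = 0.413). rpt-5 stood at 368, 403 and 373 CPM in the mutant, against 378, 401 and 409 CPM in wild type (log2 fold change -0.054 ± 0.059, adjusted p = 0.514). The genotypes overlapped for each of these 3 genes. On day 4 the smallest p of a family belonged to pas-7 at 243, 233 and 220.3 CPM in the mutant against 259, 246 and 236 CPM in wild type (log2 fold change -0.087 ± 0.048, adjusted p = 0.202). rpt-6 stood at 217, 216 and 190.4 CPM in the mutant against 232, 217 and 209 CPM in wild type, and pbs-6 at 242, 232 and 212 CPM in the mutant against 254, 237 and 229.5 CPM in wild type. rpn-1, a large scaffold of the cap, stood at 683, 669 and 585 CPM in the mutant against 648, 603 and 602 CPM in wild type (log2 fold change 0.063 ± 0.062, adjusted p = 0.484). All 4 overlapped between the genotypes.

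Of the genes around the proteasome, 3 of 8 cct genes were lower in the ceh-60 mutant on day 1, led by cct-6 (log2 fold change -0.17 ± 0.047, adjusted p = 0.0196). On day 4, 0 of the 8 passed with edgeR and 1 had an unadjusted p under 0.05. Over all genes, 25.5% passed on day 1, with 9.46% called lower, and 24.4% passed on day 4. Of 9 regulators, gst-4, a glutathione transferase gene that SKN-1 is known to activate, was the 1 that passed: it was higher in the mutant by 0.85 ± 0.19 on day 1 (adjusted p = 0.00513) and by 0.65 ± 0.18 on day 4 (adjusted p = 0.0216). skn-1 had -0.034 ± 0.037 on day 1 and -0.041 ± 0.036 on day 4 and did not pass. On day 1 also psmd-9 (-0.16 ± 0.046), csn-3 (-0.15 ± 0.045) and ubq-2 (-0.13 ± 0.042) were lower and ubc-23 (1.09 ± 0.19) higher, and 0 of 16 CDC-48 and ER-associated degradation genes passed with edgeR, 3 of them at an unadjusted p under 0.05. On day 4 the lower ones were ecps-1 (-0.18 ± 0.040), ubc-25 (-0.17 ± 0.040), ubxn-4 (-0.13 ± 0.034) and ubxn-1 (-0.19 ± 0.064).

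The 1 proteasome gene that passed for ceh-60 on day 1 was rpn-6.2 (chromosome III, 8999828 to 9001973, reverse strand). It stood at 21.99, 23.7 and 23.2 CPM in the ceh-60 mutant, against 30.3, 31.1 and 29.9 CPM in wild type (log2 fold change -0.41 ± 0.071, adjusted p = 0.000989). The genotypes did not overlap, and the adjusted p stayed between 0.000728 and 0.00716 when each library of the table was left out in turn. On day 4 the genotypes overlapped, at 24.2, 23.1 and 21.02 CPM in the mutant and 22.8, 22.8 and 20.1 CPM in wild type (log2 fold change 0.057 ± 0.070, adjusted p = 0.588). Its paralog rpn-6.1 did not pass on either day, with -0.031 ± 0.056 (95% interval -0.15 to 0.090) on day 1 and 0.0045 ± 0.056 (-0.12 to 0.13) on day 4. The authors' counting, per the file headers, ran without the option for reads that map to several places, so sequence shared by the paralogs would count for neither.

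Of the 4 groups of the first table, wild type on day 1 was thus the one with high rpn-6.2. In the ceh-60 mutant its log2 fold change by age was -0.011 ± 0.071 (95% interval -0.16 to 0.14), and in wild type it fell with age (log2 fold change -0.47 ± 0.070, adjusted p = 7.81e-05). The difference between these, mutant minus wild type and tested as an interaction, was 0.46 ± 0.10 (adjusted p = 0.0215), the 1 interaction that passed among the 33 genes, against 4.04% of all genes called and 1.82% called higher. It passed with each scaling and with DESeq2, but not when any 1 of 7 libraries was left out (replicate 2 or 3 of wild type day 1, replicate 2 or 3 of wild type day 4, replicate 1 of the mutant on day 1, replicate 1 or 2 of the mutant on day 4), where the adjusted p was 0.0513 to 0.0800. The level of rpn-6.2 per kb was 9.21, 9.08 and 9.32% of that of rpn-6.1 in the mutant on day 1, against 12.5, 12.1 and 11.2% in wild type. On day 4 it was 10.9, 10.5 and 10.8% in the mutant, against 10.4, 10.8 and 9.80% in wild type. Of the other families, the smallest p of the interaction belonged to rpt-6 (-0.12 ± 0.076), pas-5 (0.092 ± 0.083) and pbs-3 (0.053 ± 0.064), and none of the 3 passed.

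**Figure D4:**
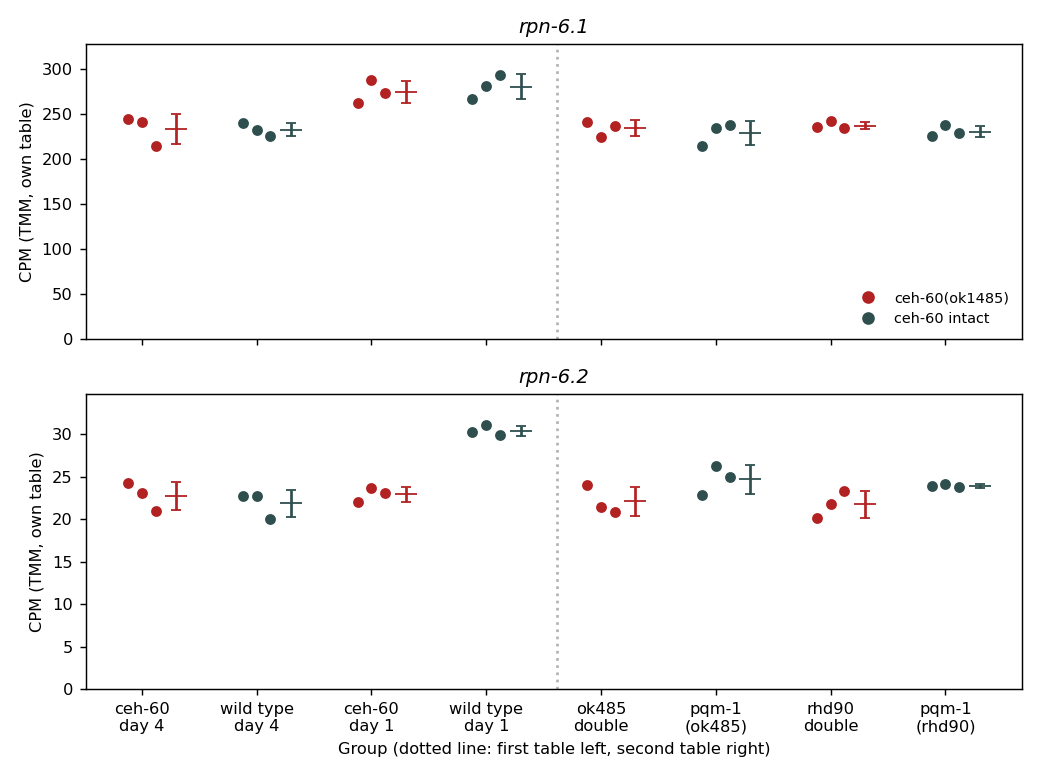
TMM-scaled CPM of rpn-6.1 (top) and rpn-6.2 (bottom) in each library by group, with mean and SD beside the points. The 3 wild type libraries of day 1 lie between 29.9 and 31.1 CPM for rpn-6.2, above the other 9 libraries of the first table, while rpn-6.1 is lower in both groups of day 4 than in both groups of day 1. The tables were scaled separately.

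In the pqm-1 mutant backgrounds, no proteasome gene passed for ceh-60 under TMM scaling. In pqm-1(ok485) background 0 of 33 genes passed with edgeR and 0 with DESeq2, 2 reaching an unadjusted p under 0.05, where 8.97% of all genes passed. The median was 0.054 and the 95% intervals reached no further than -0.34 and 0.27. In pqm-1(rhd90) background it was likewise 0 with both tools, 2 at an unadjusted p under 0.05, where 11.9% of all genes passed, with a median of 0.041 and intervals no further than -0.31 and 0.26. These counts depend on the scaling. With library totals 19 genes were called higher in the ok485 background and 21 in the rhd90 background, 0 lower in each, while the share of all calls that were higher was then 80.5% in the ok485 background, against 53.1% with TMM, and 93.4% in the rhd90 background, against 82.5% with TMM. Of the 13324 genes tested, 1874 were then called higher in the ok485 background and 2440 in the rhd90 background. The vit genes, which encode yolk protein, took 0.159% of counts in double mutants with ok485, against 9.11% in the pqm-1(ok485) single mutant, and 0.218% in double mutants with rhd90, against 9.65% in the pqm-1(rhd90) single mutant. Their part in the result under library totals was not tested.

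rpt-6 had higher values in the double mutants of both alleles and did not pass. It stood at 192, 190.5 and 192 CPM in the ok485 double mutant, against 159, 176 and 187 CPM in pqm-1(ok485) (log2 fold change 0.14 ± 0.056, adjusted p = 0.164). It stood at 197, 199 and 189.9 CPM in the rhd90 double mutant, against 178, 184 and 169.9 CPM in pqm-1(rhd90) (log2 fold change 0.14 ± 0.056, adjusted p = 0.158). The groups did not overlap in either pair. rpn-10 stood at 207, 188 and 199 CPM in the ok485 double mutant against 178, 185 and 187 CPM in pqm-1(ok485) (log2 fold change 0.11 ± 0.044, adjusted p = 0.146), without overlap. pbs-5 stood at 253, 257 and 259 CPM in the rhd90 double mutant against 235, 251 and 231 CPM in pqm-1(rhd90) (log2 fold change 0.10 ± 0.045, adjusted p = 0.208), also without overlap. In pqm-1(ok485) background the same gene overlapped, at 256, 238 and 246 CPM in the double mutant against 229.8, 229.5 and 239.9 CPM in the single mutant. pas-1, first of its family by p, had 0.071 ± 0.048 in the ok485 and 0.080 ± 0.048 in the rhd90 background, and both pairs overlapped.

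rpn-6.2 had negative values in these pairs too. It stood at 24.1, 21.5 and 20.9 CPM in the ok485 double mutant against 22.9, 26.3 and 24.98 CPM in pqm-1(ok485) (log2 fold change -0.16 ± 0.078, adjusted p = 0.265), with overlap. It stood at 20.2, 21.9 and 23.3 CPM in the rhd90 double mutant against 23.9, 24.2 and 23.8 CPM in pqm-1(rhd90) (log2 fold change -0.14 ± 0.079, adjusted p = 0.335), without overlap. Whether the ceh-60 difference of day 1 depends on the pqm-1 allele was tested across the tables, where a shift common to all libraries of a table cancels. The interaction, the ceh-60 difference with a pqm-1 allele minus that without, was 0.27 ± 0.11 for ok485 (adjusted p = 0.168) and 0.25 ± 0.11 for rhd90 (adjusted p = 0.546). No proteasome gene passed either interaction with edgeR or DESeq2, where 4.43% of all genes did for ok485 and 0.272% for rhd90. 4 of the 33 reached an unadjusted p under 0.05 for ok485 and 1 for rhd90. Beside rpn-6.2 the smallest p among positive values belonged to rpn-9 (0.18 ± 0.067 for ok485 and 0.12 ± 0.067 for rhd90). Negative values were those of pas-5 (-0.0058 ± 0.12 for ok485 and -0.0085 ± 0.12 for rhd90) and pas-2 (-0.035 ± 0.087 for rhd90). Medians over the 33 genes were 0.10 for ok485 and 0.067 for rhd90.

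Around the proteasome, gst-4 was higher in both double mutants, by 0.51 ± 0.12 in ok485 (adjusted p = 0.02) and 0.41 ± 0.12 in rhd90 background (adjusted p = 0.0403), and sel-1, also on the regulator list and part of ER-associated degradation, by 0.14 ± 0.039 in ok485 (adjusted p = 0.0478) and 0.15 ± 0.039 in rhd90 background (adjusted p = 0.0243). ubq-2 was lower in the ok485 double mutant (-0.21 ± 0.049) and ubc-23 higher in the rhd90 double mutant (1.35 ± 0.27). None of the associated, CDC-48, COP9 or chaperonin genes passed in either pair with edgeR. Unadjusted p was under 0.05 for 1, 1, 0 and 0 of them in the ok485 pair. In the rhd90 pair it was for 0, 0, 0 and 1. Over all genes, 8.97% passed in the ok485 pair and 11.9% in the rhd90 pair.

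Between the pqm-1 alleles, 0 of 33 proteasome genes passed with ceh-60 intact, 6 at an unadjusted p under 0.05 and 1 with DESeq2 (pas-2), where 7.39% of all genes passed. Over all genes, 222 were higher and 762 lower, and single libraries moved these counts: without replicate 3 of pqm-1(rhd90) 58 were higher and 129 lower, and without replicate 1 of pqm-1(ok485) 1018 were higher and 1168 lower. Libraries of the same number deviated together in this comparison, and with the replicate number as a block 4 genes were higher in pqm-1(rhd90): pas-2 (0.22, adjusted p = 0.00518), rpn-12, pbs-4 and pas-5. Without replicate 1 of pqm-1(ok485), 6 were higher. pas-2 stood at 347, 292 and 311 CPM in pqm-1(rhd90), against 305, 253 and 256 CPM in pqm-1(ok485) (log2 fold change 0.22 ± 0.082, adjusted p = 0.126). pbs-4 stood at 255, 209.6 and 234 CPM in pqm-1(rhd90), against 227, 189 and 193 CPM in pqm-1(ok485) (log2 fold change 0.20 ± 0.084, adjusted p = 0.184). Both overlapped between the alleles, and replicate 1 was the highest library of each group for both genes. rpn-8 (0.11 ± 0.048) and rpt-5 (0.061 ± 0.043) had the smallest p of their families and overlapped as well.

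In ceh-60 mutants the same comparison gave 0 calls with edgeR, 10 at an unadjusted p under 0.05 and 1 with DESeq2 (pbs-4), where 14.3% of all genes passed. With edgeR, a fit of the compared groups alone called 3 higher and no filter on low counts 1. With the replicate number as a block 6 were higher, where libraries of the same number correlated at 0.31, 0.22 and -0.0070. Without replicate 1 of pqm-1(ok485) 2 genes were higher, and without replicate 2 of the rhd90 double mutant 3 were. pbs-4, of the beta ring, stood at 251, 217 and 246 CPM in the rhd90 double mutant, against 199.9, 194 and 200.4 CPM in the ok485 double mutant (log2 fold change 0.27 ± 0.084, adjusted p = 0.0526), without overlap. rpn-12, a lid subunit, stood at 180.3, 155 and 169 CPM in the rhd90 double mutant against 156, 138 and 144 CPM in the ok485 double mutant (log2 fold change 0.21 ± 0.077, adjusted p = 0.0955). pas-2 stood at 324, 286 and 313 CPM in the rhd90 double mutant against 277, 255 and 269 CPM in the ok485 double mutant (log2 fold change 0.20 ± 0.082, adjusted p = 0.117). The libraries of pas-2 did not overlap and those of rpn-12 did, by 1 library on each side. rpt-4 had 0.087 ± 0.043 and overlapped. Across the 33 genes, the values of the allele comparison with and without ceh-60, which share no library, correlated at 0.91 (Spearman 0.86). The correlation over all genes was not computed.

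Around the proteasome, csn-3 was higher with rhd90 than with ok485 in both settings, by 0.19 ± 0.052 in the double mutants (adjusted p = 0.0289) and 0.19 ± 0.052 with ceh-60 intact (adjusted p = 0.0422), where it was the 1 gene of the 6 partner lists to pass. In the double mutants aip-1 (0.28 ± 0.063), npl-4.1 (0.32 ± 0.076), npl-4.2 (0.25 ± 0.076) and ubc-23 (0.91 ± 0.26) were higher too. Over all genes, 14.3% passed in the double mutants and 7.39% with ceh-60 intact. npl-4.1 and npl-4.2 are a pair of similar genes for a CDC-48 cofactor, and reads that map to both would count for neither. Summed sperm markers differed between the alleles: they were 11.1 to 26.2 CPM in the rhd90 double mutant against 59.1 to 175 CPM in the ok485 double mutant, and 9.59 to 15.7 CPM in pqm-1(rhd90) against 43.7 to 97.9 CPM in pqm-1(ok485), over 14 of 14 genes. Their part in the proteasome values was not tested.

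Across the tables, the median log2 fold change of proteasome genes was negative in every group with a pqm-1 allele against its counterpart without one. Table and genotype cannot be told apart here. Against wild type, 31 of 33 passed as lower in pqm-1(ok485) (median -0.30, 20.9% of all genes called lower) and 23 in pqm-1(rhd90) (median -0.21, 10.5%). Against the ceh-60 mutant, 22 passed as lower in the double mutant of ok485 (median -0.20, 5.76%) and 11 in that of rhd90 (median -0.14, 2.98%). No gene passed as higher in any of the 4. Not passed in pqm-1(ok485) were pas-5 and pbs-1, which also did not pass in the other 3.

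Cell type markers moved in the same comparisons. Of 13 oocyte markers, 11 were lower in pqm-1(ok485) over wild type and 8 in pqm-1(rhd90) over wild type, with 0 higher in both. Of all genes, 20.9% were called lower in the first and 10.5% in the second. The sum of the oocyte markers, scaled within each table, was 13034 to 16500 CPM in pqm-1(ok485) and 14487 to 15543 CPM in pqm-1(rhd90), against 18657 to 20232 CPM in wild type on day 1. Over the ceh-60 mutant, 0 oocyte markers were lower in the ok485 double mutant, 1 at an unadjusted p under 0.05 by edgeR, and 1 in the rhd90 double mutant. The shares of all genes called lower there were 5.76% and 2.98%. Markers of other tissues were mostly higher in pqm-1(ok485) than in wild type, with 11 of 12 tested for sperm, 5 of 6 for epidermis, 5 of 7 for intestine, 6 of 8 for muscle and 6 of 8 for neurons. Of the 13589 genes tested, 3635 were called higher there. In pqm-1(rhd90) over wild type, 0 sperm, 3 epidermis, 5 intestine, 0 muscle and 4 neuron markers were higher, with 0 of the sperm and 0 of the muscle markers at an unadjusted p under 0.05 by edgeR. Over all genes 2395 were higher in that comparison. In the double mutants over the ceh-60 mutant, 12 of 12 sperm markers were higher with ok485 and 0 with rhd90, where 0 had an unadjusted p under 0.05 by edgeR. Over all genes 1115 were higher with ok485 and 933 with rhd90. The part of these markers in the proteasome values was not tested.

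The counts against the ceh-60 mutant rested on single libraries. For the ok485 double mutant the count was 9 without replicate 2 of the ceh-60 mutant and 7 without replicate 2 of the double mutant. For the rhd90 double mutant it was 1 without replicate 2 of the ceh-60 mutant, 3 without its replicate 3 or without replicate 1 or 3 of the double mutant, 7 without replicate 2 of the double mutant, and 21 without replicate 1 of pqm-1(ok485), which enters only through scaling and spread. Against wild type the counts ran between 26 and 31 for pqm-1(ok485) and between 18 and 26 for pqm-1(rhd90).

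rpn-9, a lid subunit (chromosome II, 11237447 to 11239092, reverse strand), was among the 2 smallest p in all 4 comparisons. Scaled over the 18 libraries of day 1, it stood at 278, 289 and 302 CPM in pqm-1(ok485) and 305, 309 and 297 CPM in pqm-1(rhd90), against 387, 402 and 389 CPM in wild type (log2 fold change -0.44 ± 0.048, adjusted p = 1.30e-05 for ok485 and log2 fold change -0.37 ± 0.048, adjusted p = 4.25e-05 for rhd90). It stood at 328, 308 and 316 CPM in the ok485 and 314, 332 and 314 CPM in the rhd90 double mutant, against 365, 399 and 378 CPM in the ceh-60 mutant (log2 fold change -0.26 ± 0.048, adjusted p = 0.00303 for ok485 and log2 fold change -0.25 ± 0.048, adjusted p = 0.00373 for rhd90). No group of the second table overlapped its counterpart. pas-3 stood at 283, 303 and 305 CPM in pqm-1(ok485), against 372, 374 and 376 CPM in wild type (log2 fold change -0.33 ± 0.044, adjusted p = 5.95e-05). In the double mutants it had -0.28 ± 0.044 with ok485 and -0.21 ± 0.044 with rhd90, the second of which did not pass without replicate 2 of the ceh-60 mutant. rpn-10 stood at 187, 189.9 and 178 CPM in pqm-1(rhd90), against 231, 235 and 237 CPM in wild type (log2 fold change -0.34 ± 0.052, adjusted p = 0.000217). Again the groups did not overlap.

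Positive values were few and did not pass: pas-5 and pas-2 in pqm-1(rhd90) against wild type (0.067 ± 0.081 and 0.034 ± 0.061), pas-5 in the rhd90 double mutant (0.058 ± 0.081) and rpn-6.2 in the ok485 double mutant (0.018 ± 0.080). The partner lists had the same tilt in pqm-1(ok485) against wild type. There 8 of 8 cct, 14 of 16 CDC-48, 5 of 6 csn, 4 of 7 associated, 5 of 9 regulator and 15 of 25 ubiquitin genes passed as lower, against 20.9% of all genes. dss-1, which encodes the small lid subunit outside the 4 name families, had -0.52 ± 0.055 in pqm-1(ok485) and -0.38 ± 0.055 in pqm-1(rhd90) against wild type, and -0.46 ± 0.055 in the ok485 and -0.29 ± 0.055 in the rhd90 double mutant against the ceh-60 mutant. It passed in all 4. The smallest p of the ubiquitin list belonged to ubc-13 against wild type, with -0.55 ± 0.049 for ok485 and -0.47 ± 0.049 for rhd90, and of the regulators ddi-1 (-0.28 ± 0.049) was lower and wdr-23 (0.24 ± 0.050) higher in pqm-1(ok485).

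**Figure D5:**
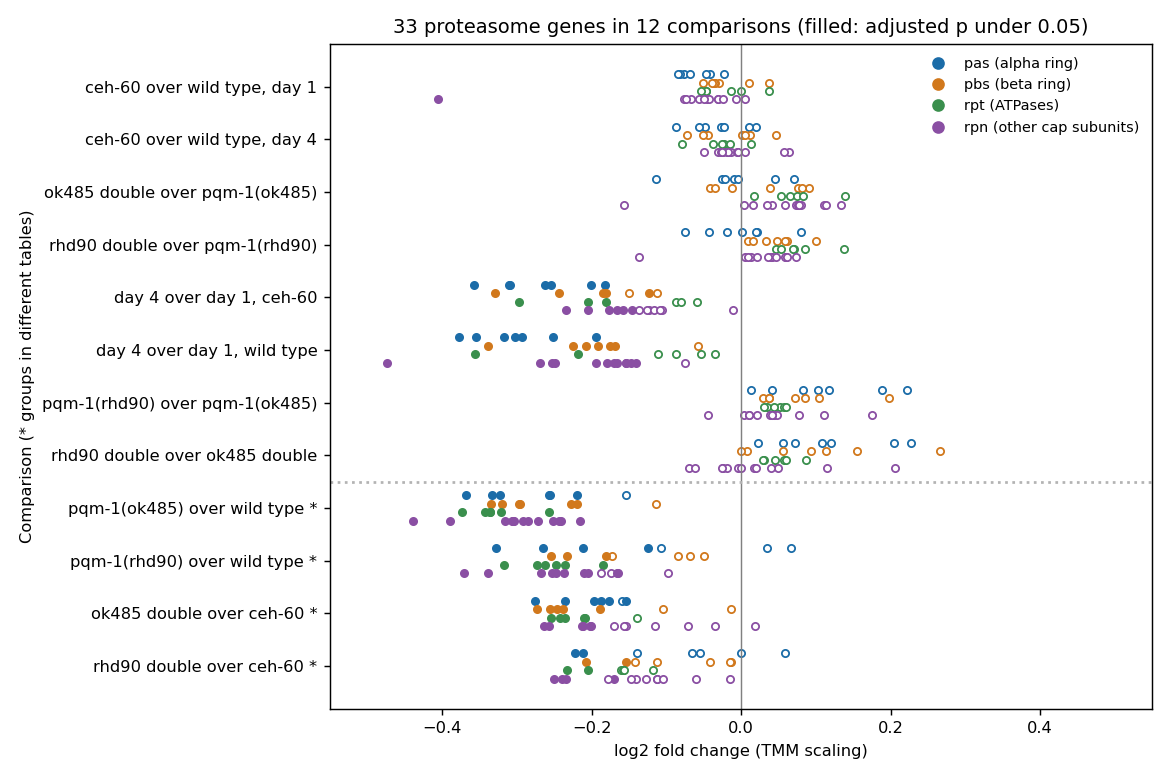
Log2 fold change of the 33 proteasome genes in 12 comparisons, coloured by family and filled where the adjusted p is under 0.05; those under the dotted line set groups of different tables against each other. Calls sit in the comparisons by age and across tables, and in the 4 comparisons for ceh-60 within a table rpn-6.2 on day 1 is the only filled point under TMM scaling. With library totals 2 genes are called higher for ceh-60 on day 1, 19 in the ok485 background and 21 in the rhd90 background. In the same order, 2692 of 13137, 1874 of 13324 and 2440 of 13324 genes are called higher over all genes tested.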

How the data were processed

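RNA of whole animals was prepared with TruSeq RNA v2, per the labels' protocols. The deposited values are raw read counts per gene, made by the authors with STAR 2.5.4, per the submitters' processing notes, and featureCounts 1.5.2 on exons of WormBase release 260, per the file headers, without options for strand, multi-mapping or overlapping reads. Genes that overlap others, here rpt-4, rpn-9, pbs-4 and rpn-7 among them, are therefore uncertain in part. Symbols came from an Ensembl annotation.

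Counts were fitted in R 4.3.3 with edgeR 4.0.16 (quasi-likelihood test, filterByExpr, TMM), separately for each table and once for the 18 libraries of day 1 of both. A fold change passed at a Benjamini-Hochberg adjusted p under 0.05 over all genes tested. After ± stand SEs for log2 fold changes and SDs for levels (n = 3). DESeq2 1.42.0, other scalings and filters, a replicate block and the omission of each library were alternatives. Scripts were tested on simulated data. rpn-6.1, rpn-6.2, rpn-10, pbs-5 and, in each comparison within a table, the smallest p of each family were named. Across tables and for interactions the 2 smallest p in each direction were named, and from each partner list the smallest p in each direction. Members and lists were chosen with earlier results of these data known. Same-numbered libraries deviated together in rhd90 over ok485 (correlations 0.47, 0.39 and 0.12) and in the ok485 double mutant over its single mutant (0.49, 0.45 and 0.17). Replicate pairs differed by more than sampling noise. Sequences were not used here.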

Additional observations from a re-analysis of the deposited data

Results flagged for a closer look

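The age difference of rpn-6.2 differed between the ceh-60 mutant and wild type by 0.46 ± 0.10 on the log2 scale (95% interval 0.25 to 0.68, adjusted p = 0.0215 by edgeR's interaction term). What drew attention to it is the test of that difference itself. The mutant stood at 24.2, 23.1 and 21.02 CPM on day 4 and 21.99, 23.7 and 23.2 CPM on day 1, against 22.8, 22.8 and 20.1 CPM on day 4 and 30.3, 31.1 and 29.9 CPM on day 1 in wild type. The adjusted p ran between 0.0176 and 0.08 with single libraries left out, and missed the threshold in 7 of 12 such fits.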

How the results depend on the processing

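Values below are log2 fold changes. The scaling mattered most. With library totals in place of TMM, 2 genes were higher in the ceh-60 mutant over wild type on day 1 (median 0.046), and pas-7 stood at 0.0040, pbs-3 at 0.038, rpt-5 at 0.035, rpn-6.1 at 0.058 and rpn-10 at 0.046. On day 4 that median was 0.030 and rpn-10 0.027. For age in the ceh-60 mutant 7 were lower (median -0.030, rpn-6.2 0.13, rpn-10 0.0088), and in wild type 5 were higher and 7 lower (median -0.012, rpn-10 0.028). For ceh-60 in the ok485 background 19 were higher (median 0.15) and in the rhd90 background 21 (median 0.16). Calls over all genes under library totals are given with the results. rpn-6.1 stood at -0.0017 in pqm-1(rhd90) over pqm-1(ok485), and pas-2 at 0.0068 and pas-5 at 0.032 in the rhd90 interaction.

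rpn-6.1 in the ceh-60 mutant over wild type on day 4 was -0.021 with relative log expression size factors, -0.022 with DESeq2 and -0.017 with no filter on low counts, which also gave the age interaction a median of -0.026. DESeq2 called 1 gene higher in pqm-1(rhd90) over pqm-1(ok485) and 1 in the rhd90 over the ok485 double mutant, where no filter called 1 and a fit of the compared groups alone 3. In that fit rpn-6.1 stood at -0.0047 in pqm-1(rhd90) over pqm-1(ok485) and -0.0059 in the rhd90 over the ok485 double mutant. The cause of these changes was not tested.

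With the replicate number as a block, 4 genes were higher in pqm-1(rhd90) over pqm-1(ok485) and 6 in the rhd90 over the ok485 double mutant. Numbers paired the libraries in the first of these and for ceh-60 in the ok485 background. In the ok485 background the block changed no call of a proteasome gene. In each of the other comparisons at least 1 number had a correlation of 0.083 or less. Other numbers went higher in the rhd90 over the ok485 double mutant (0.31, 0.22 and -0.0070). So they did for ceh-60 in the rhd90 background (0.38, 0.38 and 0.014) and on day 4 (0.33, 0.031 and 0.43). The block also gave 24 lower in day 4 over day 1 in the ceh-60 mutant, 26 in pqm-1(rhd90) over wild type, 24 in the ok485 double mutant over the ceh-60 mutant and 12 in the rhd90 double mutant over the ceh-60 mutant. In pqm-1(ok485) over wild type, 6 of 6 libraries correlated best with their own number.

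Leaving out each library in turn gave 13 to 29 lower in day 4 over day 1 in the ceh-60 mutant (median -0.24 to -0.13, rpn-6.2 -0.090 to 0.014) and 0 to 1 higher in the age interaction (median -0.043 to 0.062). In pqm-1(rhd90) over pqm-1(ok485) 0 to 6 were higher (rpn-6.1 -0.033 to 0.035, pbs-5 -0.00060 to 0.065), and in the rhd90 over the ok485 double mutant 0 to 3 (rpn-6.1 -0.012 to 0.040, rpn-6.2 -0.074 to 0.041, rpn-10 -0.053 to 0.015). Between the tables the count of lower genes was 7 to 26 in the ok485 double mutant over the ceh-60 mutant (rpn-6.2 -0.051 to 0.058) and 1 to 21 in the rhd90 double mutant over the ceh-60 mutant. The median of pqm-1(ok485) over wild type was -0.30 to -0.23, and in pqm-1(rhd90) over wild type pas-5 was -0.034 to 0.17 and pas-2 -0.031 to 0.11. rpn-6.1 was -0.065 to 0.0058 for ceh-60 on day 1 and -0.0083 to 0.060 in the ok485 background. For ceh-60 on day 4 the ranges were -0.050 to 0.041 for rpn-6.1, -0.026 to 0.090 for rpn-6.2, -0.0068 to 0.076 for pbs-5 and -0.080 to 0.015 for rpn-10. pas-5 was -0.11 to 0.071 in the ok485 interaction and -0.11 to 0.092 in the rhd90 interaction, with pas-2 at -0.12 to 0.030.

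Counts over all genes, against which those of proteasome genes are read, moved by more than 1.5 times in most comparisons when 1 library was left out. The most extreme counts of lower genes, with that of all libraries in parentheses, were 397 without replicate 1 of the ceh-60 mutant on day 1 (1243) for ceh-60 on day 1, 283 without replicate 3 of the ok485 double mutant (561) in the ok485 background and 161 without replicate 3 of pqm-1(rhd90) and 768 without replicate 1 of pqm-1(ok485) (276) in the rhd90 background. They were 440 without replicate 1 of the rhd90 double mutant and 1533 without replicate 1 of pqm-1(ok485) (849) in the rhd90 over the ok485 double mutant, 1419 without replicate 2 of wild type on day 1 (2845) in pqm-1(ok485) over wild type and 734 without replicate 3 of pqm-1(rhd90) (1431) in pqm-1(rhd90) over wild type. They were 254 without replicate 2 of the ok485 double mutant (783) in the ok485 double mutant over the ceh-60 mutant and 110 without replicate 1 of the rhd90 double mutant and 1214 without replicate 1 of pqm-1(ok485) (405) in the rhd90 double mutant over the ceh-60 mutant. Counts of higher genes were 116 without replicate 1 of wild type on day 4 (239) in the age interaction. They were 507 without replicate 1 of the rhd90 double mutant (1051) in the rhd90 over the ok485 double mutant. Over the ceh-60 mutant they ran from 426 to 1479 (1115) in the ok485 and from 339 to 1318 (933) in the rhd90 double mutant. Lower genes ran from 169 to 348 (292) in the age interaction. In the ok485 interaction lower genes ran from 205 to 980 (566) and higher ones from 9 to 70 (36). In the rhd90 interaction the ranges were 9 to 61 (26) and 5 to 15 (11). For age in either genotype and ceh-60 on day 4 no such count moved that far. rpn-6.2 has the fewest counts and is the gene most limited by depth.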
